A study of Mus musculus with 6 samples.

Results

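Genes of the proteins that join neighbouring cells were compared between bone cells of mice given dexamethasone, a synthetic glucocorticoid, and bone cells of control mice. They were chosen by a rule on the gene symbol, set with earlier results of these data known. It took every cadherin with a numbered Cdh symbol, claudin (Cldn) and connexin of the Gja, Gjb and Gjc groups in the table. It also took the zonula occludens scaffolds (Tjp), the junctional adhesion molecules (Jam2, Jam3 and F11r) and occludin (Ocln). The rule found 50 of the 29616 genes listed, namely 17 cadherins, 14 claudins, 12 connexins and 7 tight junction and junctional adhesion genes. Genes of these families that the table did not list were not analysed here. There were 3 control libraries and 3 dexamethasone libraries, all from C57BL/6 mice. From 8 weeks of age the treated mice received a dose of 0.08 µg/g each day over 4 weeks and the controls received saline, and no transgene is named for these libraries. The labels call the material bone cells, and the study's methods describe Osteocalcin-positive cells taken from bones without their marrow. The sources used here do not say whether mice were pooled for a library, so the p-values measure only the spread between these libraries.

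Cells of solid tissues are held together by adherens junctions, in which cadherins of neighbouring cells bind each other outside the membrane and hold catenins and actin inside it. Tight junctions, built from claudins, occludin and junctional adhesion molecules on zonula occludens scaffolds, seal the space between cells in epithelia and endothelia. Gap junctions are channels of connexins that let ions and small molecules pass from cell to cell. Osteoblasts and osteocytes form adherens and gap junctions but no sealing epithelium. Their best known junction proteins are N-cadherin (Cdh2), osteoblast cadherin (Cdh11) and the connexin encoded by Gja1, through which osteocytes in their lacunae remain coupled.

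Normalized counts, the reads of a gene divided by a size factor of its library, are given throughout unless reads are named. A gene was tested when its mean over the 6 libraries was at least 10 normalized counts, which held for 17442 genes. It was called when limma's adjusted p was under 0.05 and the group means of log2(normalized count + 1) differed by at least 1, a difference called the log2 change, given with its standard error (SE). "Rose" and "fell" stand for an adjusted p under 0.05, whatever the size of the change. The libraries held 72596611 to 89910728 recovered reads, with 81186636 to 88354925 in the control group. Replicate libraries differed by more than sampling noise. In bulk libraries fewer cells of a type and less RNA per cell cannot be told apart.

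The 6 osteoblast markers examined were present in every library. All 6 were called lower with dexamethasone, at log2 fold changes between -3.05 and -1.27, beside 10.6% of all tested genes called lower. Among them Bglap, the gene of osteocalcin, had 98.2, 102 and 122 normalized counts in the control libraries and 9.54, 12.0 and 15.1 in the dexamethasone libraries. The near-identical copies of Bglap may share reads with it, so its level is uncertain. Col1a1, the gene of a type I collagen chain, stood at 961923 ± 32794 (SD, n = 3) in control and 261192 ± 17852 (SD, n = 3) in dexamethasone libraries. Of the chondrocyte markers, Sox9 went from 4609 ± 246 to 17406 ± 1156 normalized counts and Col2a1 from 1517 ± 23.4 to 5687 ± 428 (SD, n = 3 each), while the cartilage matrix genes Acan and Col9a1 had at most 6 reads in any library. Of the smooth muscle and pericyte markers, Acta2 fell from 144918 ± 3876 to 12449 ± 493, whereas the pericyte marker Cspg4 rose from 7548 ± 298 to 10185 ± 502 (SD, n = 3 each). Junction genes changed in cells whose other cell type markers differed as well, and the part of these markers in the results below was not tested.

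Of the 50 junction genes, 25 passed the filter on low values and 25 did not, the latter with at most 15 reads in any library. Called differentially expressed were 10 of the 25, where 22.3% of all tested genes were called. Of them 7 were higher with dexamethasone, against a background of 11.7%, and 3 were lower, against 10.6%. An adjusted p under 0.05 alone was reached by 18 of the 25 (11 higher, 7 lower), a share of 72.0% beside 72.5% of all tested genes. The values of the groups did not overlap for 17 of the 25, or 68.0%, beside 74.7% of all tested genes. The median log2 fold change of the 25 was -0.03, with a range of -1.39 to 4.82, and that of all tested genes was 0.0007. Cldn18, Cldn1 and Cldn7 passed the filter through 1 group only, their mean in the other group being under 10 normalized counts.

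**Figure D1:**
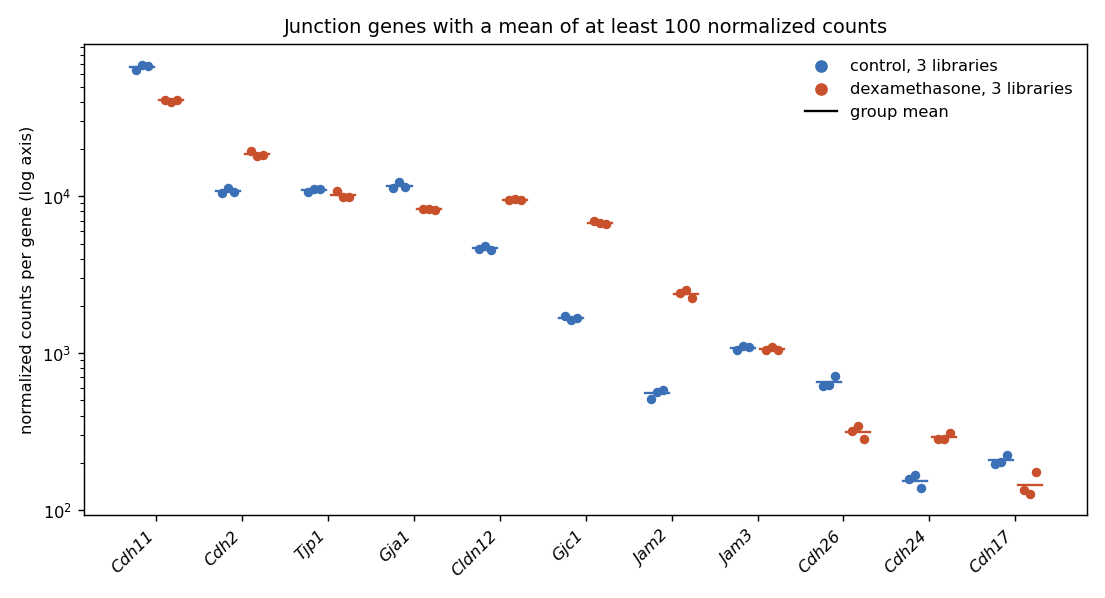
Normalized counts (log axis) of 11 junction genes with a mean of at least 100, in order of that mean, with 1 point for each library and a bar at each group mean. Gjc1 and Jam2 show the widest gaps between control and dexamethasone libraries, and the points of Jam3 and Tjp1 overlap.

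The 3 promoters shown belong to the connexin with the highest level, the claudin with the highest level, and the tested claudin that was at or below 3 reads in the control libraries. They are RefSeq sequences of build GRCm38.p6, each 300 bases around the first listed start of the gene and written 5′ to 3′ on the gene's strand. Gja1 lies at chr10:56377050-56377349 on the plus strand, Cldn12 at chr5:5514927-5515226 on the minus strand and Cldn18 at chr9:99717218-99717517 on the minus strand. Capitals mark an AP-1 match in Gja1 and a match to the hexamer of a glucocorticoid response element, on the opposite strand, in Cldn18.
Gja1: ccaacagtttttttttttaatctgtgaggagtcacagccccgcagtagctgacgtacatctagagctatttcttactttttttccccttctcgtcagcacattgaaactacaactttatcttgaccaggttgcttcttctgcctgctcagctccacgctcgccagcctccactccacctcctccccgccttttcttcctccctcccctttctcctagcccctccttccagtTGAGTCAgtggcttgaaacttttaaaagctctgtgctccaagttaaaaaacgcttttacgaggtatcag
Cldn12: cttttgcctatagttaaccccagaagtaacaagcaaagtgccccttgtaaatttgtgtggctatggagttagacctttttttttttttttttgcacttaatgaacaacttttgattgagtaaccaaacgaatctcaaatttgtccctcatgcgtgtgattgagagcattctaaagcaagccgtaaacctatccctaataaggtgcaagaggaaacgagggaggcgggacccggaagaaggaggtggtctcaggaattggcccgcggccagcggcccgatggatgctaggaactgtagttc
Cldn18: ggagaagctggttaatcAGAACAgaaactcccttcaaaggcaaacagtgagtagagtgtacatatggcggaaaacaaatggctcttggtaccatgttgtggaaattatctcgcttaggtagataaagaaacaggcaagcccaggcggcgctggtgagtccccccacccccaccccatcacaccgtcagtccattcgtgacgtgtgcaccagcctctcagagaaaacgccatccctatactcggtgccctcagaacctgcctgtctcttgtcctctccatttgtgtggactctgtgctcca

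The motifs searched on both strands of the 300-base promoters were TGTTCT, the hexamer of the glucocorticoid response element, TGANTCA, the AP-1 site, and GGGCGG, the GC box. Of the 50 junction genes 30 had an entry in the promoter table, and Cdh2, Cdh11, Gjc1 and Jam2 were among those without one. The hexamer was present in 5 of the 30 promoters (16.7%), namely those of Cdh23, Cdh24, Cldn18, Cldn2 and Cldn20, beside 19% of all 27025 promoters. The AP-1 site was present in 3 (10%), those of Cldn15, F11r and Gja1, beside 7.93% of all promoters. The GC box was present in 15 (50%), beside 35.9% of all promoters. In Gja1 the AP-1 letters began at position -19 from the start, and in Cldn18 the hexamer began at position -233. A match describes these letters only.

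The cadherins divided into a pair at high level, which changed in opposite directions, and 15 genes at low level. Cdh11, a type II cadherin of mesenchymal cells, had 63724, 68304 and 67353 normalized counts in the control libraries and 41361, 40142 and 41314 in the dexamethasone libraries. Every dexamethasone library lay below every control library. It fell by 0.70 on the log2 scale (SE 0.039, adjusted p = 3.37e-14 by limma), which was under the limit of 1 on the fold change, so it was not called. Cdh2, the type I cadherin of nerve and mesenchymal cells, had 10480, 11262 and 10721 normalized counts in control and 19512, 18145 and 18412 in dexamethasone libraries. The groups did not overlap, and the log2 change of 0.79 (SE 0.038, adjusted p = 1.47e-15 by limma) was again below the limit of 1.

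Per kilobase of the longest transcript, cadherin levels summed to 14360 ± 507 (SD, n = 3) normalized counts in control and 11384 ± 246 (SD, n = 3) in dexamethasone libraries. The share of Cdh11 in this sum was 82.0% ± 0.18 in control and 63.7% ± 0.62 in dexamethasone libraries, and that of Cdh2 was 15.6% ± 0.27 and 33.9% ± 0.68 (SD, n = 3 each). The level of Cdh11 per kilobase was 5.27 ± 0.10 times that of Cdh2 in control and 1.88 ± 0.06 times in dexamethasone libraries (SD, n = 3 each). Cdh11 thus stood first and Cdh2 second in all 6 libraries, and no other cadherin exceeded 2% of the sum by this length. With all exons of each gene joined, Cdh26 held 2.37% ± 0.19 (SD, n = 3) of the sum in control libraries. The shares and ratios are given as values, and no test of them was run.

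**Figure D2:**
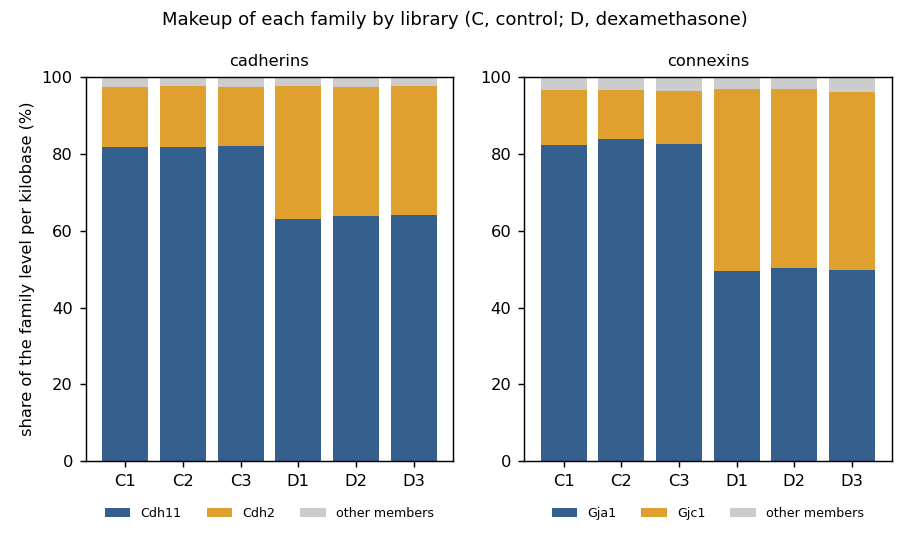
Share of each gene in the summed level per kilobase of its family (%), for each control (C1 to C3) and dexamethasone (D1 to D3) library, stacked to 100%. The Cdh2 share of the cadherins and the Gjc1 share of the connexins were larger in every dexamethasone library than in every control library.

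Cdh26 was the only cadherin called, and it was lower with dexamethasone. It encodes a cadherin-like protein best known from epithelial cells and had 615, 622 and 717 normalized counts in control and 321, 344 and 283 in dexamethasone libraries. Its log2 fold change was -1.04 (standard error 0.085, limma adjusted p = 5.28e-11), and it came to -0.97 without control replicate 3 or without dexamethasone replicate 3, which ended the call. Cdh24, a type II cadherin, had 157, 166 and 139 normalized counts in control and 281, 283 and 310 in dexamethasone libraries, a log2 change of 0.92 (SE 0.107, adjusted p = 3.39e-08 by limma). Its groups did not overlap.

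Cdh17, which encodes a cadherin of the liver and intestine with an unusually short cytoplasmic tail, fell from 196, 203 and 225 normalized counts to 134, 126 and 176, a log2 change of -0.53 (SE 0.128, adjusted p = 7.55e-04 by limma). Its 3 dexamethasone libraries were all below the control libraries. Cdh22, a type II cadherin first described in the brain, rose from 39.6 ± 10.2 to 74.3 ± 9.91 (SD, n = 3 each), a log2 change of 0.91 (adjusted p = 5.65e-04 by limma), which passed the limit without control replicate 1, at 1.06, without dexamethasone replicate 1, at 1.03, and after quantile normalization, at 1.02. Cdh23, known for the tip links of hair cells in the inner ear, stood at 82.1 ± 18.6 and 107 ± 12.8 (SD, n = 3 each), with overlapping groups and a log2 change of 0.40 (adjusted p = 0.0416 by limma). Its adjusted p was over 0.05 under 8 alternatives, among them edgeR (0.0568), DESeq2 (0.0873), scaling to the same total (0.151) and leaving out control replicate 3 (0.306). Of the 9 tested cadherins 7 had an adjusted p under 0.05 (77.8%, beside 72.5% of all tested genes), 4 of them higher and 3 lower.

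The classical epithelial cadherins were near the limit of testing. Cdh1, the gene of E-cadherin, stood at 16.8 ± 4.19 normalized counts in control and 12.5 ± 4.85 in dexamethasone libraries (SD, n = 3 each), a log2 fold change of -0.45 with a 95% interval of -1.24 to 0.34 (limma adjusted p = 0.295). Cdh3, the gene of P-cadherin, stood at 17.4 ± 3.30 and 22.7 ± 5.61 (SD, n = 3 each), a log2 fold change of 0.35 with a 95% interval of -0.30 to 1.00 (limma adjusted p = 0.330). Both intervals include 0 and changes of some size in either direction. Cdh5, the cadherin of endothelial junctions, had 2, 0 and 0 reads in control and 2, 2 and 1 reads in dexamethasone libraries, all under the 3 reads that a count of 0 allows, and a difference was not detectable at this depth.

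Of the 5 tested connexins 4 were called, beside 22.3% of all tested genes. All 5 had an adjusted p under 0.05, beside 72.5% of all tested genes, and groups that did not overlap, beside 74.7%. Gja1, the main connexin of osteoblasts and osteocytes, had 11256, 12319 and 11498 normalized counts in control and 8293, 8316 and 8158 in dexamethasone libraries. It fell by 0.50 on the log2 scale (SE 0.037, adjusted p = 9.47e-12 by limma) and was not called, its change being under the limit. Its promoter, printed above, holds the AP-1 letters.

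Gjc1 encodes a connexin known from the conduction system of the heart, from vascular muscle and from osteoblasts, where it can share channels with the product of Gja1. It had 1720, 1625 and 1680 normalized counts in control and 6981, 6740 and 6691 in dexamethasone libraries. The mean rose 4.06-fold, from 1675 ± 47.3 to 6804 ± 155 (SD, n = 3 each), a log2 change of 2.02 (SE 0.039, adjusted p = 1.19e-23 by limma). The lowest dexamethasone library lay far above the highest control library, and the call held under every alternative tried.

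Per kilobase of the longest transcript, connexin levels summed to 3623 ± 134 in control and 4257 ± 44.4 normalized counts in dexamethasone libraries (SD, n = 3 each). Gja1 made up 82.9% ± 0.87 of the sum in control and 49.9% ± 0.46 in dexamethasone libraries, and Gjc1 made up 13.6% ± 0.87 and 46.8% ± 0.58 (SD, n = 3 each). The level of Gja1 was 6.13 ± 0.47 times that of Gjc1 in control and 1.07 ± 0.02 times in dexamethasone libraries. Which of them stood higher with dexamethasone depended on the gene length used. With all exons of each gene joined, the ratio was 3.41 ± 0.26 in control and 0.59 ± 0.01 in dexamethasone libraries (SD, n = 3 each), so that the order of the pair turned, while the ratio was lower with dexamethasone by either length.

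The connexins below the limit of testing included those of arteries. Gjb5, a connexin of the skin, had 1, 3 and 6 reads in control and 3, 4 and 3 reads in dexamethasone libraries. Gja4, an arterial endothelial connexin, had 2, 6 and 9 reads in control and 3, 10 and 8 reads in dexamethasone libraries. Gja5, the other arterial connexin, had 0, 1 and 0 against 1, 0 and 4 reads, and the groups of all 3 genes overlapped. Gja6, a connexin gene of the X chromosome, had 7, 9 and 10 reads in control and 0, 1 and 1 in dexamethasone libraries, at least 2.50-fold lower against a floor of 3 reads per library.

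**Figure D3:**
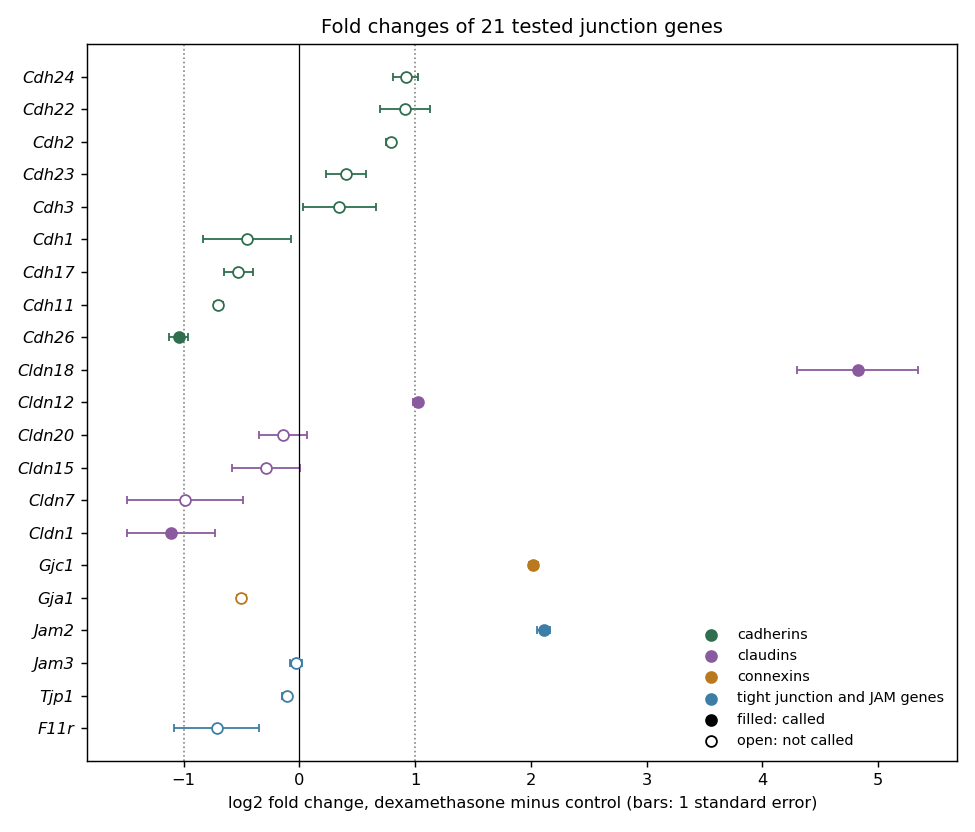
Log2 fold change (dexamethasone minus control, log2(normalized count + 1) scale) of 21 tested junction genes by family, with bars of 1 standard error and filled points for called genes. Dotted lines mark the limit of 1 in either direction, and Cldn18 at 4.82 is a fitted value of a gene that was at or below 3 reads in the control libraries.

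A single claudin made up nearly all of the claudin level. Cldn12, a claudin found in many tissues and known for calcium passage in the intestine, had 4633, 4855 and 4556 normalized counts in control and 9522, 9570 and 9429 in dexamethasone libraries. It rose 2.03-fold, a log2 change of 1.02 (SE 0.036, adjusted p = 2.41e-18 by limma), and the groups lay far apart. Its change sat on the limit for a call, being 0.996 with edgeR, 0.84 after quantile normalization and 0.91 with libraries scaled to 1 total, each with an adjusted p under 0.05. Per kilobase, it held 91.1% ± 1.43 of the claudin sum in control and 95.7% ± 0.52 in dexamethasone libraries (SD, n = 3 each). Its promoter, printed above, held none of the 3 motifs.

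Cldn18, the claudin of stomach and lung epithelium, which is also known to restrain osteoclast formation in mice, was at or below the floor in the control libraries and clearly counted in the dexamethasone libraries. It had 0, 0 and 3 reads in control and 48, 39 and 34 reads in dexamethasone libraries. Against a floor of 3 reads per library it was at least 15.4-fold higher with dexamethasone (limma adjusted p = 9.97e-09). Per kilobase it remained a small part of the claudin sum, 0.385% ± 0.025 (SD, n = 3) in dexamethasone libraries. Cldn1, a claudin of the epidermal barrier, had 15.6, 20.5 and 17.6 normalized counts in control and 5.72, 7.63 and 10.5 in dexamethasone libraries. It was called lower, with a log2 change of -1.11 (SE 0.382, adjusted p = 0.0123 by limma), and this call was lost with a pseudocount of 5, at -0.83, without control replicate 2, at -1.01 (adjusted p = 0.0524), and without dexamethasone replicate 1, at -0.92.

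The 3 other tested claudins did not pass. Cldn20 stood at 56.4 ± 7.77 and 51.5 ± 10.4 normalized counts (SD, n = 3 each), Cldn15, known from the intestine, at 25.6 ± 4.96 and 20.8 ± 3.92, and the epithelial Cldn7 at 13.7 ± 5.37 and 7.08 ± 4.34. For Cldn7 the 95% interval of the log2 fold change, -2.02 to 0.05, included decreases beyond the limit (limma adjusted p = 0.0799). Cldn7 was called at -1.21 to -1.34 without control replicate 2, dexamethasone replicate 1 or dexamethasone replicate 3, and stood at -0.41 without dexamethasone replicate 2. The remaining 8 claudins had at most 14 reads in any library, among them Cldn10 with 14, 6 and 10 reads in control and 6, 5 and 9 in dexamethasone libraries. Only a small part of the Cldn24 sequence is unique to that gene, so its reads, at most 2 in any library, are uncertain.

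The junctional adhesion molecules separated from each other. Jam2, which is known from endothelial and other junctions and binds the product of Jam3, had 510, 564 and 585 normalized counts in control and 2404, 2530 and 2238 in dexamethasone libraries. It rose 4.32-fold, a log2 change of 2.11 (SE 0.060, adjusted p = 2.34e-20 by limma), with no overlap and the largest fold change among junction genes with a mean of at least 100. Jam3, its binding partner, had 1049, 1107 and 1096 normalized counts in control and 1054, 1095 and 1044 in dexamethasone libraries. These groups overlapped, and the log2 change of -0.03 (SE 0.053, adjusted p = 0.671 by limma) had a 95% interval of -0.14 to 0.08. In the GENCODE annotation used here, 36.2% of the exon bases of Jam3 are overlapped by a gene on the opposite strand, and the strand setting of the count is not given in the sources used here. F11r, the platelet and epithelial member, stood at 17.2 ± 1.08 and 10.4 ± 3.24 normalized counts (SD, n = 3 each), with a log2 fold change of -0.71 and a 95% interval of -1.47 to 0.04 (limma adjusted p = 0.0826).

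Tjp1, the scaffold under these receptors, stood at a high level in all 6 libraries. The gene, which encodes the scaffold ZO-1, had 10655, 11167 and 11174 normalized counts in control and 10877, 9830 and 9906 in dexamethasone libraries. It fell by 0.11 on the log2 scale (SE 0.040, adjusted p = 0.0164 by limma), dexamethasone replicate 1 lying within the control range, a change of the same size as the shift of -0.11 that scaling to the same total gave the median of all genes. Its adjusted p was 0.0607 to 0.0875 without control replicate 2 or 3 or dexamethasone replicate 2 or 3, and 0.121 in limma without the trend.

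Per kilobase of the longest transcript, Tjp1 stood at 1560 ± 42.2 normalized counts in control and 1448 ± 82.9 in dexamethasone libraries (SD, n = 3 each), and Jam3 at 558 ± 15.7 (SD, n = 3) in control and at 548 with a smaller SD in dexamethasone libraries. Jam2 stood at 127 ± 8.81 in control and 547 ± 33.5 in dexamethasone libraries (SD, n = 3 each), where it did not differ from Jam3 beyond the spread. With all exons of each gene joined, Jam2 and Jam3 were at 395 ± 24.2 and 333 ± 8.51 in dexamethasone libraries, so the order of these neighbours depended on the gene length used. Ocln, the gene of occludin, had 0, 1 and 0 reads in control and 4, 10 and 5 reads in dexamethasone libraries, at least 2.47-fold higher against a floor of 3 reads per library. Tjp3, the epithelial scaffold of the family, had 13, 3 and 7 reads in control and 7, 15 and 3 in dexamethasone libraries.

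**Figure D4:**
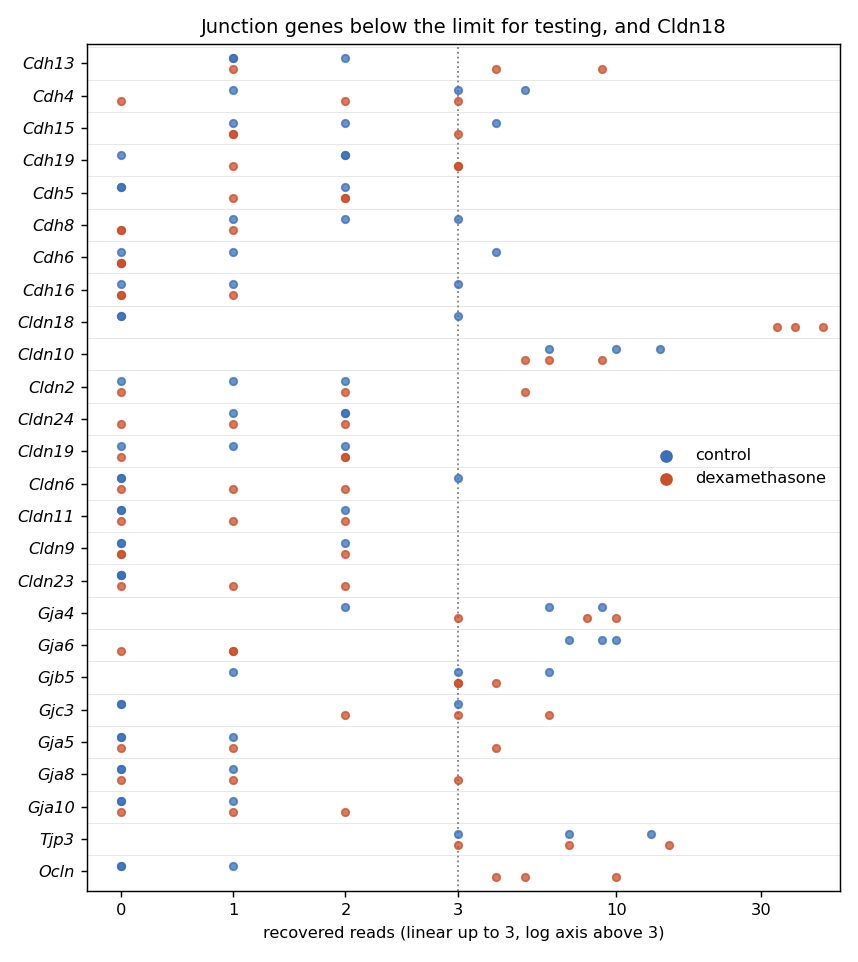
Reads per library of the 25 junction genes that were not tested, and of Cldn18 (axis linear up to 3 reads and logarithmic above), with 1 point for each control and dexamethasone library and a dotted line at the 3 reads that a count of 0 allows. Cldn18 and Ocln lie above 3 reads in every dexamethasone library, Gja6 lies above 3 reads in every control library, and Cdh5 stays under 3 reads in all 6 libraries.

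The genes below the limit of testing are shown in the plot of reads per library. Of the 50 junction genes 12 had 3 reads or fewer in every library, at or under what a count of 0 allows. The cadherins of muscle (Cdh15), Schwann cells (Cdh19) and kidney (Cdh16) were among the 8 untested cadherins, none of which exceeded 9 reads in any library. Cdh13, the cadherin anchored by lipid and bound by adiponectin, reached those 9 reads in dexamethasone replicate 1, with 1, 1 and 2 reads in control and 9, 4 and 1 in dexamethasone libraries.

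Markers of other cell types that carry such junctions were low but not absent. Of the defining endothelial markers, Pecam1 had 10.1 to 19.3 normalized counts in control and 20.9 to 29.6 in dexamethasone libraries, Tek had 11.4 to 14.7 and 3.49 to 14.2, and Tie1 was at 0 in all control libraries with at most 3.49 in dexamethasone libraries. The 9 endothelial markers in the table summed to 876 to 1028 normalized counts in control and 691 to 758 in dexamethasone libraries. The lower sum came from Ptprb, which fell (log2 change -1.25), while Kdr (0.25), Pecam1 (0.74) and Esam (1.20) rose. The 7 epithelial markers in the table summed to 22.5 to 34.3 in control and 2.18 to 16.3 in dexamethasone libraries. None of these markers passed the filter on low values. Of those that define the type, Krt5 was at 0 in 5 of 6 libraries and Krt14 had 9.18 to 25.5 and 1.09 to 4.77. The 8 haematopoietic markers summed to 160 to 189 in control and 818 to 869 in dexamethasone libraries through Cd53 and Itgb2. Laptm5 (log2 change -1.49) and Coro1a (-1.77) were called lower. Both passed the filter through the control group only, their dexamethasone means being 6.41 and 6.79 normalized counts. Csf1r fell by 0.67, and Ptprc, which defines the lineage, had 1.76 to 5.81 normalized counts in all 6 libraries. The 5 Schwann and glial markers summed to 671 to 713 in control and 483 to 514 in dexamethasone libraries, with Sox10 at 4.36 or less. The part of these cells in the junction genes was not tested.

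The partners of the junction proteins were examined as 6 lists, which held 61 genes in the table and 43 tested genes. Of these, 10 were called (23.3%, beside 22.3% of all tested genes), 3 higher and 7 lower, and 41 had an adjusted p under 0.05 (95.3%, beside 72.5%). The partners were mostly abundant, 38 of them having a mean of at least 100, while 2 passed the filter through 1 group only. In a limma fit of all 12021 genes at that level, 10056 had an adjusted p under 0.05. The median log2 fold change of the 43 tested partners was -0.07. The catenins and other adherens junction partners, which link cadherins to actin, had log2 changes of -0.67 to 0.95, each short of the limit of 1, with a median of 0.09. All 8 tested genes had an adjusted p under 0.05, 4 higher and 4 lower. Beta-catenin (Ctnnb1), at 31588 ± 1252 normalized counts in control and 29233 ± 654 in dexamethasone libraries (SD, n = 3 each), fell by 0.11 on the log2 scale (limma adjusted p = 0.0110). That was the size of the shift of -0.11 that scaling to the same total gave the median of all genes. Under the alternatives the log2 change of Ctnnb1 was -0.23 to -0.087, and its adjusted p was not under 0.05 in all of them. Alpha-catenin (Ctnna1) went from 23987 ± 822 to 29468 ± 1590 (log2 change 0.30, limma adjusted p = 4.74e-07) and vinculin (Vcl), which strengthens the link to actin under load, from 30441 ± 918 to 19143 ± 820 (-0.67, limma adjusted p = 5.10e-14). The 10 tested genes on the list of cadherin-cleaving proteases and their subunits ranged from -0.75 to 0.34, all with an adjusted p under 0.05. Of these genes 4 were higher and 6 lower. Adam10, the main sheddase of Cdh2, had a log2 change of 0.10 that turned to -0.12 after quantile normalization and -0.018 at the same total. Of the other abundant genes on that list, Ncstn had -0.31 and Furin 0.34.

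**Figure D5:**
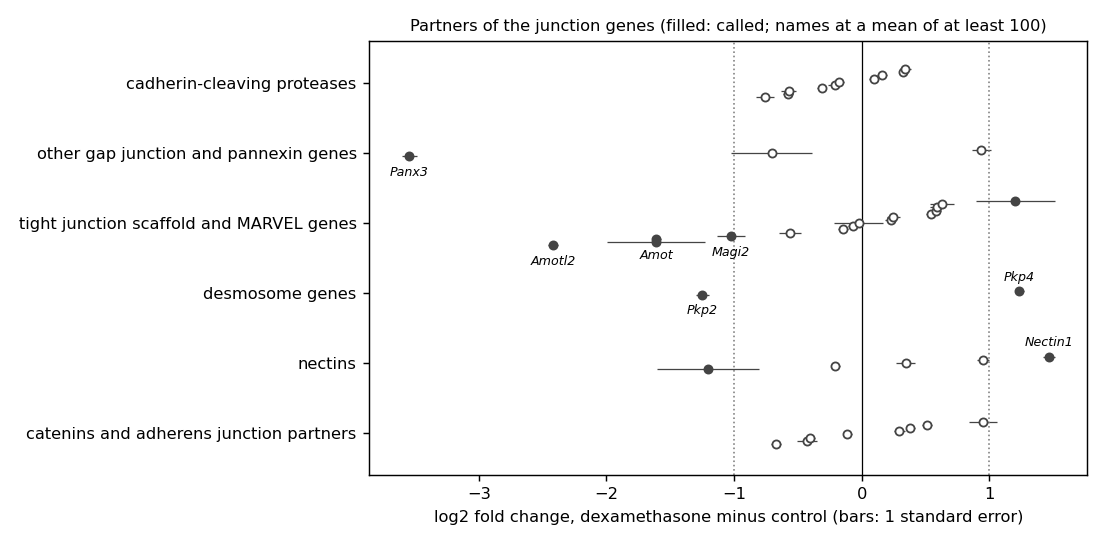
Log2 fold change (dexamethasone minus control) of the 43 tested partner genes in 6 lists, with bars of 1 standard error, filled points for called genes and dotted lines at the limit of 1. Genes on the lists of catenins and of cadherin-cleaving proteases lie within the limits, and Panx3, Amotl2 and Amot lie farthest to the left.

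Other partners changed more. Nectin1, an immunoglobulin-like adhesion molecule of adherens junctions, rose from 1379 ± 25.7 to 3820 ± 221 normalized counts (SD, n = 3 each, log2 change 1.47, limma adjusted p = 1.83e-19), while Pvr moved by 0.95 and Nectin3 by -0.21. Of the 2 tested desmosome genes the plakophilin Pkp4 rose from 2830 ± 61.0 to 6673 ± 209 (log2 change 1.24, limma adjusted p = 1.52e-19) and Pkp2 fell from 2745 ± 192 to 1154 ± 60.0 (-1.25, limma adjusted p = 1.04e-16), and the other 6 had at most 8 reads. The list of tight junction scaffold genes also held membrane proteins. Among its 15 tested genes 1 was called higher and 4 lower (33.3%, beside 22.3% of all tested genes), with a median of -0.02. The 1 called higher was Esam, an adhesion molecule. The angiomotin genes, whose products bind the scaffolds and the Hippo pathway, moved unequally. Amotl2 fell from 28004 ± 591 to 5241 ± 245 normalized counts (log2 change -2.42, limma adjusted p = 1.37e-25) and Amot from 26632 ± 546 to 8735 ± 312 (-1.61, limma adjusted p = 1.90e-22), while Amotl1 rose by 0.58. Panx3, a pannexin of osteoblasts and chondrocytes that forms channels of its own, had 3106, 3088 and 3207 normalized counts in control and 274, 280 and 250 in dexamethasone libraries, a log2 change of -3.54 (SE 0.058, adjusted p = 4.16e-25 by limma). The other pannexins in the table were Panx1, with a log2 fold change of 0.94, and Panx2, with -0.71.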

How the data were processed

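The RNA libraries of bone cells were made with a stranded mRNA kit. Per the labels and methods, the authors counted reads per gene with STAR (2.7.10a, build GRCm39 in the submitters' processing notes) and deposited the counts divided by a DESeq2 (1.36.0) size factor, a signal that is never negative. The annotation release and the strand setting are not given in the sources used here. Every value was a whole multiple of 1 read (100%, within 0.01 read), so reads were recovered, 72596611 to 89910728 a library.

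Symbols came from GENCODE M21 (28087 of 29616 genes). Genes averaging 10 normalized counts or more were compared with limma (3.58.1, R 4.3.3) with a mean-variance trend on log2(value + 1), after checking on simulated data, with Benjamini-Hochberg adjustment over all 17442 genes. Fold changes of low genes are understated on this scale. Called genes had an adjusted p under 0.05 and differed by 1 or more on the log2 scale. A count of 0 allows 3 reads. Floors cover counting error only. Tests of the recovered reads with DESeq2 (1.42.0) and edgeR (4.0.16), other filters, pseudocounts and scalings, a replicate block and leaving out each library were alternatives. Members and lists were chosen with earlier results of these data known.

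Values per library were given for junction genes with a mean of at least 100, for called ones at 10 to 100 and for Cdh5; of each partner list, the 3 most abundant genes and the called gene with the largest change in each direction at a mean of at least 100. Other genes were named after their values were seen. Some genes are in the counts and sums but their own values are not reported here. Levels between genes were compared per kilobase of the longest transcript in GENCODE M21. Promoter sequences came from RefSeq (GRCm38.p6), and no coordinates of the count table were used.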

Additional observations from a re-analysis of the deposited data

How the results depend on the processing

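Of the junction genes, 10 were called (7 higher, 3 lower) and this number was within 1.5 times under most alternatives. It was 6 of 13 (4 higher, 2 lower) among genes averaging 100 normalized counts or more, where 2170 of all 12021 such genes were called. On the adjusted p alone it was 18 of 25, beside 72.5% of all tested genes. With no filter on low values it was 12 of 50, where Gja6 and Ocln were added, beside 5326 of all 29616 genes. With 25 tested, it was 8 with a pseudocount of 5 or with all libraries scaled to the same total. It was 9 with edgeR, 10 with DESeq2, and 9 to 11 when single libraries were left out. In these fits of 25, 3496 to 3944 of all 17442 tested genes were called. The median log2 fold change of -0.03 was 0.32 with no filter and -0.14 at the same total, and -0.049 to 0.036 when single libraries were left out. It remained -0.03 with Cldn18 at its bound. Scaling to the same total moved the median of all genes by -0.11. Leaving out 1 library gave Cldn20 a log2 fold change of -0.25 to 0.036, against -0.14 with all libraries, and Patj, a scaffold gene, -0.15 to 0.12, against -0.02. Patj was 0.089 after quantile normalization and Adam10 -0.12, or -0.018 at the same total. The causes were not tested. Over the single values of 21 tested junction genes, 311 kept direction and side of the threshold, 6 passed it newly, 8 no longer passed it and 1 reversed. Same-numbered libraries did not deviate together (correlations -0.0999, -0.105 and -0.0199), and a replicate block gave 10 called junction genes, all 10 shared, and 3897 called genes in all. The coding length was not used, since every member had a transcript length.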

Other observations

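The neighbouring genes among the low junction genes did not share a level. On chromosome 8, Cdh11 with 40142 to 68304 normalized counts lies between Cdh8 and Cdh5 with no other protein-coding gene of RefSeq in between, and these neighbours had at most 3 reads in any library. Cdh3 and Cdh1, also adjacent on chromosome 8, were both tested and did not pass. Among the partner genes below a mean of 100 normalized counts, Esam, an adhesion molecule of endothelial junctions that is also on the endothelial marker list, had 10.1, 20.5 and 12.3 normalized counts in control and 30.5, 37.1 and 31.4 in dexamethasone libraries, a log2 change of 1.20 (adjusted p = 0.00132 by limma). The 4 osteocyte markers in the table summed to 8220 to 8760 normalized counts in control and 18449 to 19774 in dexamethasone libraries. The higher sum came mainly from Pdpn (log2 change 0.68) and Dmp1 (7.16), the 1 marker called. Phex rose by 0.60, while Mepe was lower (-0.77, limma adjusted p = 0.0749) without overlap of the groups. The 3 megakaryocyte markers summed to 388 to 450 and 423 to 475, nearly all from Itga2b (0.10). Gp9 had 15, 8 and 9 reads in control and 3, 4 and 3 in dexamethasone libraries. Pf4 had 3, 4 and 3 against 2, 0 and 0 reads. The 4 skeletal muscle markers summed to 55.4 to 73.4 and 36.0 to 54.4, with Acta1 called lower (-1.56) and Mylpf at 0.33. Acta1 passed the filter through the control group only, its dexamethasone mean being 9.28 normalized counts.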
